A study of Danio rerio with 24 samples.

Results

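The genes described here encode the digestive enzymes that the exocrine pancreas makes, together with cuzd1.1, which is listed with them by name, measured in intestines dissected from zebrafish larvae. They were chosen by name, with no measured value in the rule, but with earlier results of these data known. The 10 names prss1, try, ctrb1, cpa4, cpa5, cpb1, cel.1, cel.2, amy2a and cuzd1.1 were found as 9 of the 30263 rows in the table of genes. The names prss1 and try belong to 1 gene (ENSDARG00000042993), which the table lists as try and the reference of gene names as prss1. All 9 rows passed the filter on low values and were tested.

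RNA came from pools of 10 intestines of AB larvae, labelled wild type with the transgene tg(cldn15la:GFP), at 5, 7 and 9 days post fertilization (dpf), with 3 libraries per age. All larvae carried the reporter, in which the promoter of a claudin of the intestinal epithelium drives GFP, and the labels name a dry feed, rotifers and Artemia as the diet of the larvae. No pancreas was sampled on its own: the tissue is labelled intestine, and whatever pancreas remained attached to the dissected gut went into the pool. The labels give no clutch or day for any pool, so the p values measure only the spread between the 3 pools of an age, which may be technical in part.

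Acinar cells of the pancreas make most of their protein for export: proteases stored as inactive zymogens, lipases and amylase are packed into granules and released through the ducts into the gut lumen. In the gut, enteropeptidase of the brush border cuts trypsinogen, and the trypsin formed then activates the other zymogens. In zebrafish the exocrine tissue comes to lie along the anterior intestine, and the enzyme genes are standard markers of it in larvae.

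Library totals ran from 7014333 to 14327144 reads, and the 9 genes together took a very small part of each. Their share was lowest in 5dpf_2 (library 2 at 5 dpf, named likewise below), at 0.0374% of reads (95% exact binomial interval 0.0360% to 0.0389%), and highest in 7dpf_3, at 0.126% (0.124% to 0.128%). These intervals cover counting error only. Read counts per library ran from 65 to 197 for cpa4, the least counted of the 9, and from 670 to 4374 for try. Markers of the labelled tissue were abundant in every library, with fabp2, a fatty acid binding protein of enterocytes, at 7375 to 39532 normalized counts and cldn15la at 9486 to 20595.

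The summed level of the 9 genes differed widely between pools of the same age. It came to 3981, 2449 and 8063 normalized counts in the 5 dpf libraries 1 to 3, to 8024, 6349 and 15245 at 7 dpf, and to 5801, 9611 and 6386 at 9 dpf. All 3 pairs of ages overlapped: 5dpf_3 was above 7dpf_1, 7dpf_2, 9dpf_1 and 9dpf_3, and 9dpf_2 was above 7dpf_1 and 7dpf_2. In a bulk pool, fewer acinar cells and less RNA per acinar cell cannot be told apart.

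In normalized counts, 5dpf_2 was the lowest of the 9 libraries for all 9 genes, and 7dpf_3 was the highest for 7 of them. The exceptions were cpa4, highest in 5dpf_3, and cuzd1.1, highest in 9dpf_2. The normalized total of all genes was also lowest in 5dpf_2, at 6.54e+06, and highest in 9dpf_2, at 1.41e+07, a 2.15-fold range. Library 5dpf_3 held 2.03 to 3.29 times the summed level of the other 5 dpf libraries, so results at 5 dpf are also given without it where it decides them. Scaled to total reads in place of the authors' size factors, the sum was 415, 374 and 808 RPM (reads of a gene per 1e+06 reads of its library) at 5 dpf, 772, 701 and 1257 RPM at 7 dpf, and 573, 684 and 556 RPM at 9 dpf. On that scale all 9 dpf libraries lay below all 7 dpf libraries, which the normalized counts did not show.

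**Figure D1:**
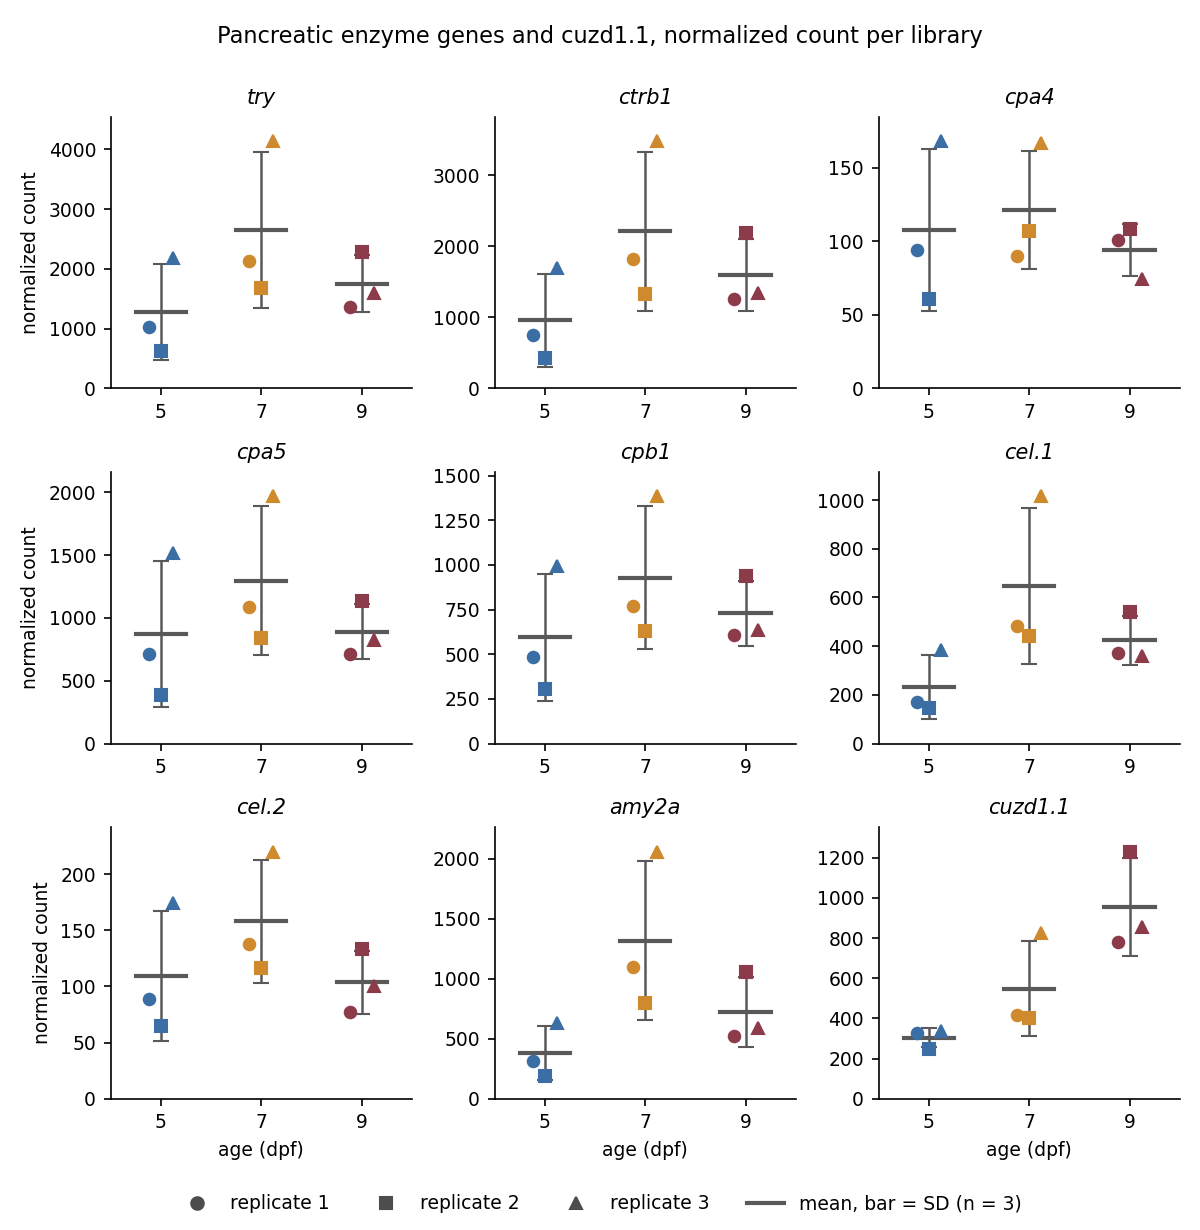
Normalized count of each of the 9 genes (vertical axes, each from 0) at 5, 7 and 9 dpf (horizontal axes). Symbols are the 3 libraries of an age, the thick line is their mean and the bar the SD. Replicate 3 is the highest symbol at 5 and at 7 dpf for all 9 genes, and cuzd1.1 alone has its highest values at 9 dpf.

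The serine proteases try and ctrb1 rose and fell together over the libraries, but their ratio differed between ages. The ratio of ctrb1 to try counts was 0.73, 0.69 and 0.78 at 5 dpf, and 0.85, 0.80 and 0.84 at 7 dpf. At 9 dpf it was 0.92, 0.95 and 0.84, so both older ages lay wholly above 5 dpf, and no test was run on it. try, trypsin 1, stood at 1031, 625 and 2173 normalized counts at 5 dpf, at 2129, 1676 and 4133 at 7 dpf, and at 1369.6, 2285 and 1599 at 9 dpf. The 7 dpf libraries were above 5dpf_1 and 5dpf_2 but not all above 5dpf_3, and the 9 dpf libraries overlapped both younger ages. The 7 against 5 dpf difference was log2 1.13 (SE 0.44, adjusted p = 0.209 in limma), a 2.19-fold higher level that did not pass the test.

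ctrb1, a chymotrypsinogen (ENSDARG00000090428), stood at 755, 429 and 1692 normalized counts at 5 dpf, at 1816, 1333 and 3476 at 7 dpf, and at 1259, 2179 and 1346 at 9 dpf. Its libraries took nearly the same order as those of try, and both older ages overlapped 5 dpf through 5dpf_3 alone. The difference was log2 1.31 (SE 0.52, adjusted p = 0.240) for 7 against 5 dpf and log2 0.92 (SE 0.52, adjusted p = 0.257) for 9 against 5 dpf.

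The carboxypeptidases, which take single amino acids from the C-terminal end of peptides, showed smaller differences between ages. cpa5 (ENSDARG00000021339), of the A group that prefers aromatic and aliphatic residues, stood at 713, 383 and 1513 normalized counts at 5 dpf, at 1084, 841 and 1966 at 7 dpf, and at 709, 1133 and 824 at 9 dpf. cpb1 (ENSDARG00000045442), of the B group that prefers lysine and arginine, stood at 486, 304 and 991 at 5 dpf, at 769, 632 and 1383 at 7 dpf, and at 610.2, 940.0 and 635 at 9 dpf. For both, 5dpf_3 was the second highest of the 9 libraries, and their log2 differences for 7 against 5 dpf were 0.70 (SE 0.49) and 0.73 (SE 0.42).

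cpa4 (ENSDARG00000043722), also of the A group, stood at 94.2, 60.6 and 168 normalized counts at 5 dpf, at 89.7, 107 and 166 at 7 dpf, and at 101, 108 and 74.0 at 9 dpf. All ages overlapped, and the highest library was at 5 dpf. Its 9 against 5 dpf difference was log2 -0.08 (SE 0.33), the single negative one of the 9 genes in that comparison.

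The paired lipase genes cel.1 and cel.2 encode carboxyl ester lipases, which bile salts activate and which split cholesterol esters, triglycerides and vitamin esters. cel.1 (ENSDARG00000017490) stood at 169, 145 and 384 normalized counts at 5 dpf, at 483, 442 and 1015 at 7 dpf, and at 373, 541 and 359 at 9 dpf. All 7 dpf libraries were above all 5 dpf libraries, by 2.84-fold in the fit (log2 1.51, SE 0.42, adjusted p = 0.0918), a difference that missed the threshold. cel.2 (ENSDARG00000029822) stood at 89.0, 64.4 and 175 at 5 dpf, at 138, 116 and 220 at 7 dpf, and at 77.2, 133 and 100.1 at 9 dpf, with all ages overlapping.

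The ratio of cel.1 to cel.2 counts, with no correction for length, was 1.90, 2.25 and 2.20 at 5 dpf, 3.50, 3.80 and 4.61 at 7 dpf, and 4.83, 4.05 and 3.58 at 9 dpf. Both older ages lay wholly above 5 dpf, whichever pool held much or little enzyme RNA. The pair of genes was set side by side after their values were seen. They are neighbours on the newer GRCz12tu assembly, and since the handling of reads that match several copies is not given in the sources used here, the split of reads between them is uncertain.

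amy2a (ENSDARG00000013856), a pancreatic alpha-amylase that cuts starch and glycogen, showed the widest range of the 9 genes, 10.9-fold between its lowest and highest library. It stood at 316, 189 and 630.3 normalized counts at 5 dpf, at 1098, 798 and 2061 at 7 dpf, and at 525, 1059.7 and 592 at 9 dpf. All 7 dpf libraries were above all 5 dpf libraries, and the 9 dpf libraries overlapped both. The 7 against 5 dpf difference, 3.62-fold (log2 1.86, SE 0.52, adjusted p = 0.106), was the highest fold of the 9 genes and did not pass.

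cuzd1.1 (ENSDARG00000089050) is the one member that is not an enzyme. Its mammalian relative CUZD1 is a protein of the zymogen granule membrane with CUB and zona pellucida domains. It stood at 328, 249 and 337 normalized counts at 5 dpf, at 418, 403 and 823 at 7 dpf, and at 779, 1231 and 856 at 9 dpf. All 9 dpf libraries and all 7 dpf libraries were above all 5 dpf libraries, and the 9 dpf libraries overlapped 7 dpf through 7dpf_3 alone. It rose 3.09-fold at 9 against 5 dpf (log2 1.63, SE 0.25, adjusted p = 0.000143 in limma), with 955 ± 242 normalized counts at 9 dpf and 305 ± 48.4 at 5 dpf (SD, n = 3 each).

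The comparison of 9 with 5 dpf spans the study. Of the 9 genes 1, cuzd1.1, passed and was higher, against 16.8% of the 24298 genes tested that passed in either direction and 12.6% that passed and were higher. With an unadjusted p under 0.05 there were 2 of the 9, cuzd1.1 and cel.1, against 32.2% of all genes. The log2 fold change was positive for 8 of the 9, with a median of 0.61 beside -0.04 over all genes tested, but it was also below 0 for cpa5, cpb1 and cel.2 on total read scaling, for cel.2 on TMM scaling, for cpa5 on quantile scaling and for both on cyclic loess scaling. Total read scaling put the median of all genes at -0.49, below the values of cpa5, cpb1 and cel.2 on that scaling (-0.235, -0.023 and -0.44). Normalized counts did not overlap between these ages for 1 of the 9, cuzd1.1, and for 36.3% of all genes.

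Library 5dpf_3 decided how many of the 9 genes passed between 9 and 5 dpf. Without it 5 of the 9 passed and were higher, namely the enzyme genes try, ctrb1, cel.1 and amy2a, and cuzd1.1, against 15.3% of all genes in the same fit. Without 5dpf_2, the lowest library for all 9 genes in normalized counts, 1 passed, cuzd1.1, in a fit that called 2784 of 24029 genes. The log2 fold changes of try, ctrb1, cel.1 and amy2a were then 0.19, 0.45, 0.71 and 0.63, against 0.61, 0.92, 0.98 and 1.04 with all libraries. Without 7dpf_3, which enters through the shared spread, 2 passed, cel.1 and cuzd1.1, against 19.2%. cuzd1.1 passed in all 21 alternatives, with log2 fold changes of 1.17 to 1.76 and adjusted p of 1.07e-07 to 0.00219.

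From the comparison of 7 with 5 dpf, the first step, no gene of the 9 passed in limma or in edgeR, against 4.05% of all genes in limma. All 9 had a positive log2 fold change, from 0.24 for cpa4 to 1.86 for amy2a, with a median of 0.78 beside -0.0022 over all genes tested, although cpa4 was at -0.04 on total read scaling, where the median of all genes was -0.28. An unadjusted p under 0.05 was found for 5 of them, try, ctrb1, cel.1, amy2a and cuzd1.1, against 16.8% of all genes. Normalized counts did not overlap for 3 of them, cel.1, amy2a and cuzd1.1, against 19.4% of all genes.

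DESeq2 on the recovered reads passed 3 of the 9 for this step, cel.1, amy2a and cuzd1.1, against 7.82% of the genes to which it gave an adjusted p. Without 5dpf_3, limma passed 6, namely try, ctrb1, cpb1, cel.1, cel.2 and amy2a, against 3.74%, and without 7dpf_2 it passed 1, cuzd1.1, against 6.34%. Without 5dpf_2 it passed 0, in a fit that called 861 of 24029 genes. The log2 fold changes of try and ctrb1 were then 0.71 and 0.85, against 1.13 and 1.31 with all libraries.

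At 9 against 7 dpf, the second step, no gene of the 9 passed in limma, edgeR or DESeq2, against 1.88% of all genes in limma. The log2 fold change was negative for 8 of the 9, from -0.82 for amy2a to -0.29 for cpb1, and 0.85 for cuzd1.1 (SE 0.25, adjusted p = 0.0829). cuzd1.1 was the 1 gene with an unadjusted p under 0.05, against 15.6% of all genes, and none of the 9 had normalized counts that did not overlap, against 20.3%. cpb1 was above 0 without 7dpf_3 (log2 0.035). cuzd1.1 passed without 5dpf_2 and without 7dpf_3, in fits that called 4.15% and 3.97% of all genes. Its adjusted p ran from 0.00462 to 0.398 over the 21 alternatives.

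The difference of the steps (9 against 7 dpf minus 7 against 5 dpf) was negative for 8 of the 9 genes, from -2.67 for amy2a to -0.57 for cpa4 on the log2 scale, and 0.08 for cuzd1.1. None passed in limma, edgeR or DESeq2, against 1.0% of all genes in limma, and 2, amy2a and cel.1, had an unadjusted p under 0.05, against 8.74%. Without 5dpf_3, cel.1 passed (log2 -2.46, adjusted p = 0.0158), in a fit that called 0.921% of all genes.

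**Figure D2:**
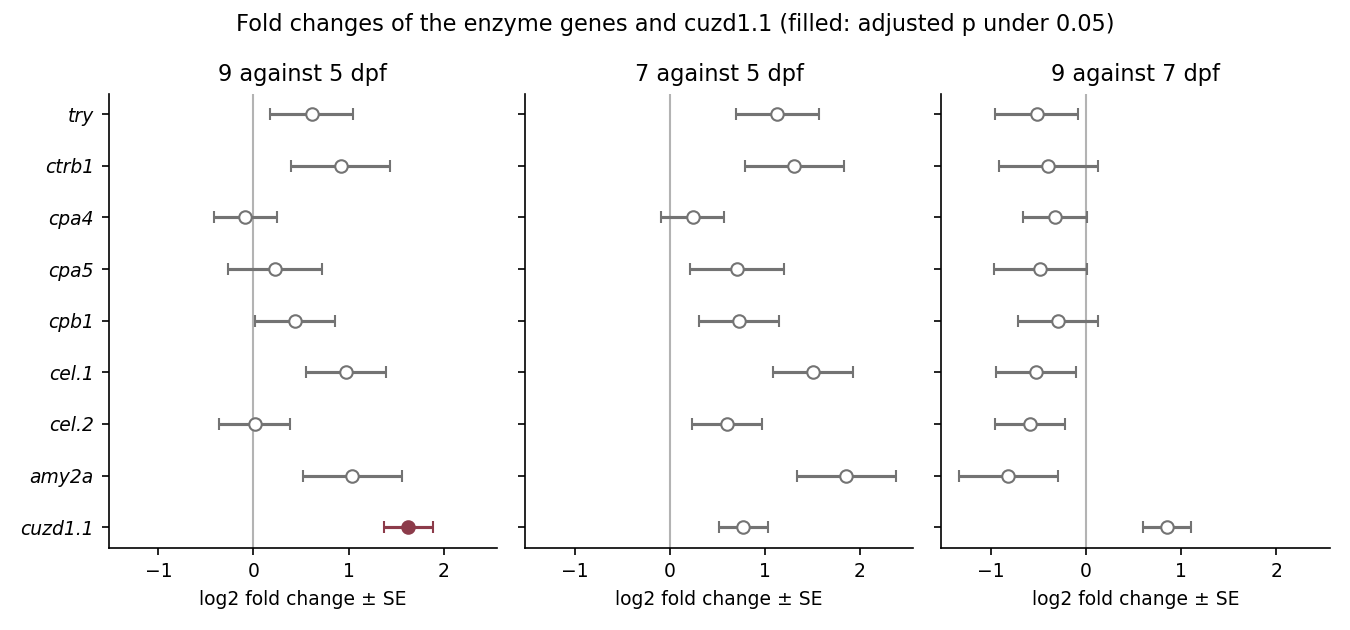
Log2 fold change of each gene (horizontal axes, bars are SE) for 9 against 5, 7 against 5 and 9 against 7 dpf from the limma fit over 9 libraries; filled points passed at an adjusted p under 0.05. The 1 filled point is cuzd1.1 at 9 against 5 dpf, and in the last panel cuzd1.1 is the 1 gene above 0.

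The proportions among the 9 genes varied less within an age than their summed level did, in each gene and each age by the ratio of the highest to the lowest library. Each gene's normalized count was expressed as a percentage of the sum of the 9 in the same library. For a gene that follows the sum, this takes out how much enzyme RNA a pool held. The shares of cuzd1.1, which followed the others least, also carry the swing of the sum. At 5 dpf its highest share was 2.43 times its lowest, while its counts were 328, 249 and 337. These percentages carry no correction for gene length, and since they add up to 100% in each library they are not independent of each other. The exact permutation test over the 3 ages used for them (280 ways to divide 9 libraries into 3 groups of 3, smallest possible p 0.00357) was added after the values were seen.

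amy2a took 7.94%, 7.73% and 7.82% of the sum at 5 dpf, 13.7%, 12.6% and 13.5% at 7 dpf, and 9.05%, 11.0% and 9.28% at 9 dpf. No pair of ages overlapped, with 7 dpf highest and 5 dpf lowest, and the 3 libraries at 5 dpf lay within a narrow band although their summed enzyme level ranged widely. The exact permutation p was 0.00357, the smallest that the design allows.

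The carboxypeptidases took more of the sum at 5 dpf than later. cpa5 took 17.9%, 15.7% and 18.8% at 5 dpf, 13.5%, 13.2% and 12.9% at 7 dpf, and 12.2%, 11.8% and 12.9% at 9 dpf (exact permutation p = 0.00714). cpb1 averaged 12.3% ± 0.0995 at 5 dpf, 9.54% ± 0.439 at 7 dpf and 10.1% ± 0.387 at 9 dpf (SD, n = 3 each, exact permutation p = 0.0107). cpa4 took 2.37%, 2.48% and 2.08% at 5 dpf, 1.09% to 1.68% at 7 dpf and 1.12% to 1.73% at 9 dpf (exact permutation p = 0.0214). For all 3 genes every library at 7 and at 9 dpf was below every library at 5 dpf.

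The lipase pair parted in the same way as in their direct ratio. cel.2 averaged 2.34% ± 0.249 at 5 dpf, 1.67% ± 0.199 at 7 dpf and 1.43% ± 0.124 at 9 dpf (SD, n = 3 each, exact permutation p = 0.00714). cel.1 averaged 4.97% ± 0.848, 6.55% ± 0.479 and 5.89% ± 0.463 at 5, 7 and 9 dpf, with 9 dpf overlapping both other ages (exact permutation p = 0.0821).

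cuzd1.1 took 8.23%, 10.2% and 4.18% at 5 dpf, 5.21%, 6.35% and 5.40% at 7 dpf, and 13.4%, 12.8% and 13.4% at 9 dpf. All 9 dpf libraries were above all others, and 5 dpf, with its lowest share in 5dpf_3, overlapped 7 dpf (exact permutation p = 0.0286). The proteases held the steadiest parts: try averaged 26.1% ± 0.744, 26.7% ± 0.379 and 24.1% ± 0.780 at 5, 7 and 9 dpf (exact permutation p = 0.0107), and ctrb1 19.2% ± 1.74, 22.1% ± 0.993 and 21.8% ± 0.802 (exact permutation p = 0.0571). Neither was constant as a share of the 9. All try shares at 9 dpf were below those of both younger ages. With cuzd1.1 left out of the sum, try averaged 28.2%, 28.3% and 27.8% at 5, 7 and 9 dpf, and all ages overlapped. All ctrb1 shares at 7 and 9 dpf were above those at 5 dpf, but narrowly. The lowest were 21.00% in 7dpf_2 and 21.08% in 9dpf_3, against 20.98% in 5dpf_3. With cuzd1.1 left out, ctrb1 took 19.5% to 21.9%, 22.4% to 24.1% and 24.3% to 26.0% at 5, 7 and 9 dpf.

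Between 9 and 5 dpf the shares did not overlap for 8 of the 9 genes, 3 higher and 5 lower, against 13.8% of all genes when their ratio to the same sum was taken. Between 7 and 5 dpf it was 7 of the 9, against 18.2%, and between 9 and 7 dpf 3 of the 9, against 18.6%. An exact permutation p under 0.05 over the 3 ages was found for 7 of the 9, against 10.1% of all genes. Adjusted over all 24298 genes, every one of these p values was 0.404, where no gene could have an unadjusted p below 0.00357. For a gene of another tissue, the swing of the enzyme sum between pools enters the ratio in full, so the background is not one of like genes.

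With cuzd1.1 left out of the sum, a choice made after seeing the data, 6 of the 8 enzymes did not overlap between 9 and 5 dpf (9.17% of all genes) and 6 of 8 between 7 and 5 dpf (16.6%). ctrb1 and amy2a were the higher ones and cpa4, cpa5, cpb1 and cel.2 the lower ones in both comparisons, while try and cel.1 overlapped. Direction depends on what the genes are set against. Relative to the mean log2 level of 14 other exocrine genes, the 9 against 5 dpf log2 difference was 0.39 for try, 0.21 for cpb1 and 0.0011 for cpa5, where relative to the sum of the 9 it was -0.11, -0.29 and -0.50. Those 14 genes count equally and are mixed. Their own 9 against 5 dpf log2 fold changes include 0.92 for spink4 and 0.69 for cuzd1.2, both called, and values down to -0.89.

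**Figure D3:**
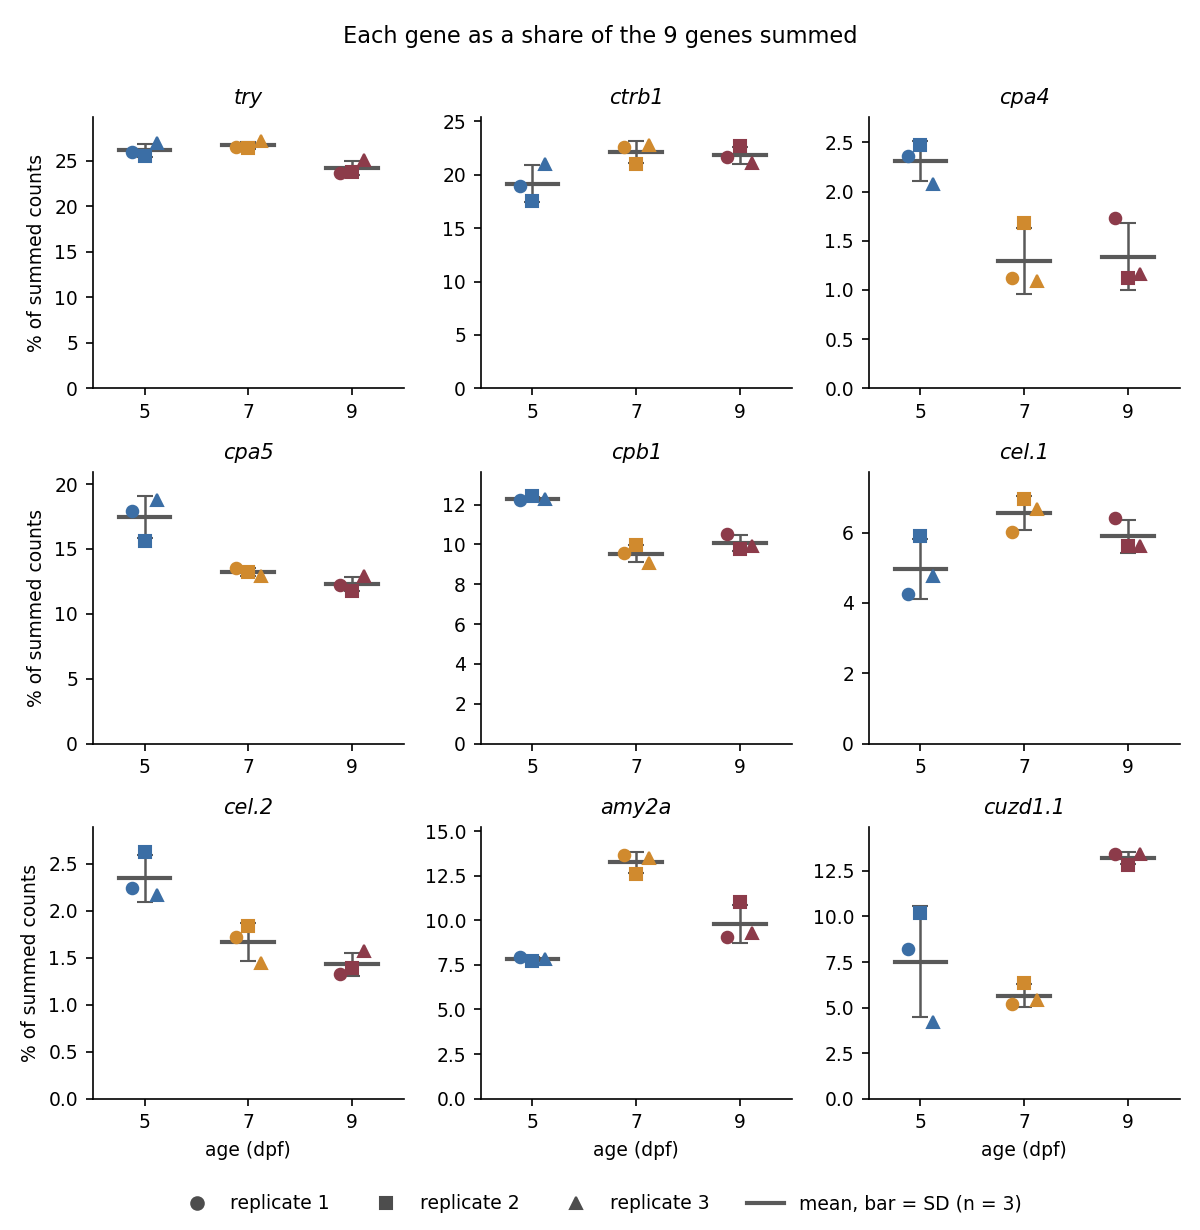
Share of each gene in the summed normalized count of the 9 genes (vertical axes in percent, each from 0) at 5, 7 and 9 dpf. Symbols are libraries, the line is the mean of 3 and the bar the SD. amy2a separates all 3 ages, cpa4, cpa5, cpb1 and cel.2 are highest at 5 dpf, and cuzd1.1 is highest at 9 dpf.

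Across the 9 libraries, most members followed the mean of the other 8. Each gene's log2 level was compared with the mean centred log2 level of the others; these correlations describe libraries that share age, depth and scaling, and they are given with no p. Pearson's r was 0.995 for ctrb1 (Spearman's rho 0.97), 0.994 for try, 0.981 for cpb1, 0.96 for cel.1, 0.95 for amy2a, 0.93 for cpa5 and 0.89 for cel.2. Without the 2 libraries farthest from the median of that mean, r was 0.99 for ctrb1, 0.97 for try and 0.69 for cel.2.

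cpa4 and cuzd1.1 followed least. cpa4 had an r of 0.75 (rho 0.60), which was 0.28 without the 2 farthest libraries. It was also the least counted of the 9, with 65 to 197 reads, and had the narrowest range over libraries, 2.77-fold. The part of either in its r was not tested. cuzd1.1 had an r of 0.56 (rho 0.60), which was 0.19 without them. Against the mean of the 10 intestinal epithelium genes, in contrast, cuzd1.1 had an r of 0.93, and the other 8 genes had 0.30 (cpa4) to 0.76 (ctrb1). On total read scaling the r of cuzd1.1 was 0.11 with the other members and 0.87 with the epithelium genes. On that scaling the other 8 genes had -0.60 (cpa4) to 0.36 (amy2a) with the epithelium genes. With the other members they had 0.46 (cpa4) to 0.99 (try).

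**Figure D4:**
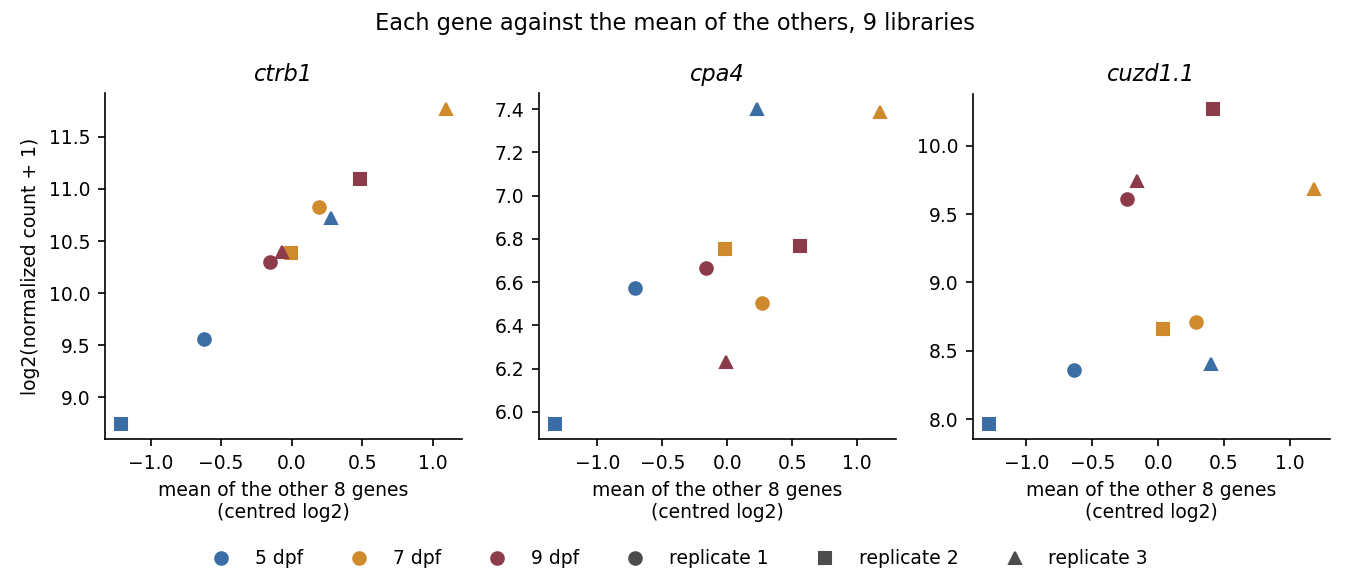
Log2(normalized count + 1) of ctrb1, cpa4 and cuzd1.1 (vertical axes, each its own range) against the mean centred log2 level of the other 8 genes (horizontal axes) in 9 libraries, coloured by age and shaped by replicate. ctrb1 lies along a line (r 0.995), cpa4 scatters (r 0.75), and the 9 dpf libraries of cuzd1.1 lie above the others at the same horizontal position (r 0.56).

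Among 15225 other genes with a mean normalized count of 50 or more, the 15 most like the mean of the 9 held 3 genes of the exocrine list. These were the elastases ela2l (Pearson's r 0.99) and ela3l (0.98) and the trypsin-like prss59.1 (0.97). The other 12, with r of 0.97 to 0.99, included the ribosomal protein genes rpl30, rplp0 and rps10, and nudt12, mau2, nfybb, bysl, ppfia1, glulb, srsf10b and NDUFAF3. The make-up of this group depended on the scaling. With total read scaling, tried after seeing the data, 7 of the 15 were of the exocrine list: ela2l, ela3l, ela2, prss59.2, prss59.1, ctrl and cpa1. With the authors' size factors the count was 1 without 7dpf_3.

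Of the 29 names listed as other secretory genes of the exocrine pancreas, 19 were found in the table and 18 were tested. At 9 against 5 dpf 2 of the 18 passed, both higher, against 12.6% of all genes that passed and were higher, and the median log2 fold change was 0.34. At 7 against 5 dpf 1 passed, against 4.05% of all genes, and the median was 0.84. At 9 against 7 dpf 0 passed in limma, edgeR or DESeq2, against 1.88% of all genes in limma, and the median was -0.47. An unadjusted p under 0.05 was found for 4, 6 and 2 of the 18 at 9 against 5, 7 against 5 and 9 against 7 dpf. The shares of all genes were 32.2%, 16.8% and 15.6%. The medians of the 9 members were 0.61, 0.78 and -0.48 for these comparisons, and those of all genes tested -0.04, -0.0022 and -0.02.

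spink4, a Kazal-type serine protease inhibitor that goblet cells of the gut express in mammals, rose at 9 against 5 dpf (log2 0.92, SE 0.22, adjusted p = 0.00642) and at 7 against 5 dpf (log2 0.88, adjusted p = 0.0236). The call at 9 against 5 dpf was lost without 9dpf_2 (adjusted p = 0.0603), and that at 7 against 5 dpf without 5dpf_1, 5dpf_2, 7dpf_1 or 7dpf_3 (adjusted p = 0.0643 to 0.117). It stood at 196, 136 and 231 normalized counts at 5 dpf, at 354, 267 and 407 at 7 dpf, and at 296, 445 and 317 at 9 dpf, both older ages above 5 dpf in every library. cuzd1.2, which shares the family of cuzd1.1, rose at 9 against 5 dpf (log2 0.69, adjusted p = 0.0297), with 661 to 897 normalized counts at 9 dpf and 446 to 570 at 5 dpf. It was not called on total read, quantile or cyclic loess scaling or without 5dpf_2, 5dpf_3, 9dpf_2 or 9dpf_3 (adjusted p = 0.0598 to 0.216). Reads shared between the cuzd1 copies were not resolved.

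The other genes named by rule were not called in any comparison. The trypsin-like prss59.2 had log2 fold changes of 0.33 at 9 against 5 dpf and 1.04 at 7 against 5 dpf, and its neighbour prss59.1 had 0.50 and 0.87. The elastase ela3l had 0.51 and 0.94, and ela2l had 0.60 and 1.24. These values lie within those of the 8 enzymes, but the list as a whole was more mixed. Of the 18 tested, 12 were positive at 9 against 5 dpf, 14 at 7 against 5 dpf and 3 at 9 against 7 dpf. The lowest log2 fold change at 9 against 5 dpf was -0.89, below that of every enzyme (lowest -0.08). The prss59 pair shares the uncertainty about reads of near-identical copies.

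Of the 6 transcription factors listed for the acinar programme, 0 passed in limma, edgeR or DESeq2 in any of the 3 comparisons. Of all genes, 16.8%, 4.05% and 1.88% passed in limma at 9 against 5, 7 against 5 and 9 against 7 dpf. An unadjusted p under 0.05 was found for 0 of the 6, against 32.2%, 16.8% and 15.6% of all genes in these comparisons. ptf1a, the factor that commits cells to the pancreas and drives zymogen genes in acinar cells, stood at 14.2, 22.4 and 23.0 normalized counts at 5 dpf, at 25.9, 24.1 and 7.56 at 7 dpf, and at 21.3, 20.6 and 18.8 at 9 dpf. Its lowest library was 7dpf_3, the one with the highest summed enzyme level, but that value rests on few reads. In that library 1 read is worth 0.945 normalized counts. rbpjl, its partner in the acinar complex, stood at 52.1 to 74.6 in all libraries. xbp1, gata6 and nr5a2, which the intestine also expresses, stood at 1329 to 2515, 728 to 1396 and 543 to 1099.9, and bhlha15, a factor of secretory cells, at 18.1 to 39.6.

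Genes of zymogen activation and of the control of pancreatic secretion were also not called. Of the 5 tested, 0 passed in limma, edgeR or DESeq2 in any comparison. The shares of all genes that passed in limma were 16.8%, 4.05% and 1.88% at 9 against 5, 7 against 5 and 9 against 7 dpf. An unadjusted p under 0.05 was found for 1 of the 5, at 7 against 5 dpf, against 16.8% of all genes. tmprss15, which encodes enteropeptidase, the activator of trypsinogen, stood at 209, 149 and 155 normalized counts at 5 dpf, at 178, 206 and 443 at 7 dpf, and at 202, 245 and 338 at 9 dpf, with overlapping ages. The cholecystokinin gene ccka, whose hormone calls for enzyme release, stood at 17.7 to 34.0, and the receptor gene listed as CCKAR at 57.4 to 84.4. The muscarinic receptor genes chrm1a and chrm3a stood at 16.7 to 42.0 and 16.2 to 36.7.

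Among 7 rows of pancreatic duct genes, which liver ducts and gut also express, 1 was higher and 1 lower at 9 against 5 dpf, beside 16.8% of all genes called in either direction. The bicarbonate cotransporter slc4a4a rose by log2 0.93 (adjusted p = 0.0315, 0.0525 to 0.143 without 5dpf_1, 5dpf_2, 7dpf_1, 9dpf_2 or 9dpf_3), and 1 of 2 rows named slc26a6, an anion exchanger, fell by 0.78 on the log2 scale (adjusted p = 0.00415). cftr, the chloride channel of ducts, stood at 279.5 to 499.9 normalized counts and was not called, nor were hnf1ba and sox9b. Of 15 tested islet genes 0 passed in limma, edgeR or DESeq2 in any comparison. In limma 16.8%, 4.05% and 1.88% of all genes passed at 9 against 5, 7 against 5 and 9 against 7 dpf. In the same order, 1, 1 and 2 islet genes had an unadjusted p under 0.05, against 32.2%, 16.8% and 15.6% of all genes. The insulin gene ins stood at 5.08 to 11.6 normalized counts and insb at 3.78 to 14.9, while gcga, the glucagon gene that gut endocrine cells also express, stood at 104 to 173.

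Liver genes, the other organ that could remain on a dissected gut, differed between pools in another order than the enzymes. Their summed level over 15 rows ranged from 116 to 362 RPM at 5 dpf, from 68.9 to 238 RPM at 7 dpf and from 40.8 to 62.6 RPM at 9 dpf. It was highest in 5dpf_3, where the enzyme sum was also the highest of its age, and at 68.9 RPM in 7dpf_3, where the enzyme sum was the highest of all. In 5dpf_3 the transferrin gene tfa stood at 1594 normalized counts and the liver fatty acid binding protein gene fabp10a at 494, against 263 to 379 and 58.8 to 110 in the other 5 dpf libraries. At 9 against 5 dpf 2 of the 15 liver genes passed in limma, c9 (log2 -1.25) and uox (log2 -1.64), against 16.8% of all genes. In edgeR 3 passed and in DESeq2 7, in fits that called 4123 and 3977 genes. An unadjusted p under 0.05 in limma was found for 8 of the 15, against 32.2% of all genes. The log2 fold change was positive for 1 of the 15, and their median was -0.85 beside -0.04 over all genes tested. The part of liver or of dissection in the enzyme values was not tested.

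The intestinal epithelium list separated the 3 ages. Its 10 genes summed to 37419.5 to 39998 RPM at 5 dpf, 51868 to 60600.1 RPM at 7 dpf and 65494 to 67869 RPM at 9 dpf, with no overlap between ages, and apobb.1 supplied most of these reads. At 9 against 5 dpf 6 of the 10 passed and were higher, cdh17, mtp, fabp2, anpepb, apobb.1 and vil1, with log2 fold changes of 1.04 to 1.36, against 12.6% of all genes. Without 9dpf_2, anpepb, fabp2, apobb.1 and vil1 did not pass (adjusted p = 0.0604 to 0.172); apobb.1 and vil1 were each lost in 5 of the 9 fits that left out a library. cuzd1.1 was higher by log2 1.63 in the same comparison, and the part of epithelial cells in its reads was not tested. The 6 smooth muscle genes summed to 1238 to 1421 RPM at 5 dpf, 861 to 1045 RPM at 7 dpf and 712 to 869 RPM at 9 dpf. In normalized counts all ages overlapped, at 8100 to 14186, 7794 to 12635 and 8177 to 11572. Of the 6, 1, desma, passed at 9 against 5 dpf in limma and was lower, against 16.8% of all genes called in either direction. It did not pass in DESeq2 nor in 5 of the 9 fits that left out a library (adjusted p = 0.0527 to 0.160).

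**Figure D5:**
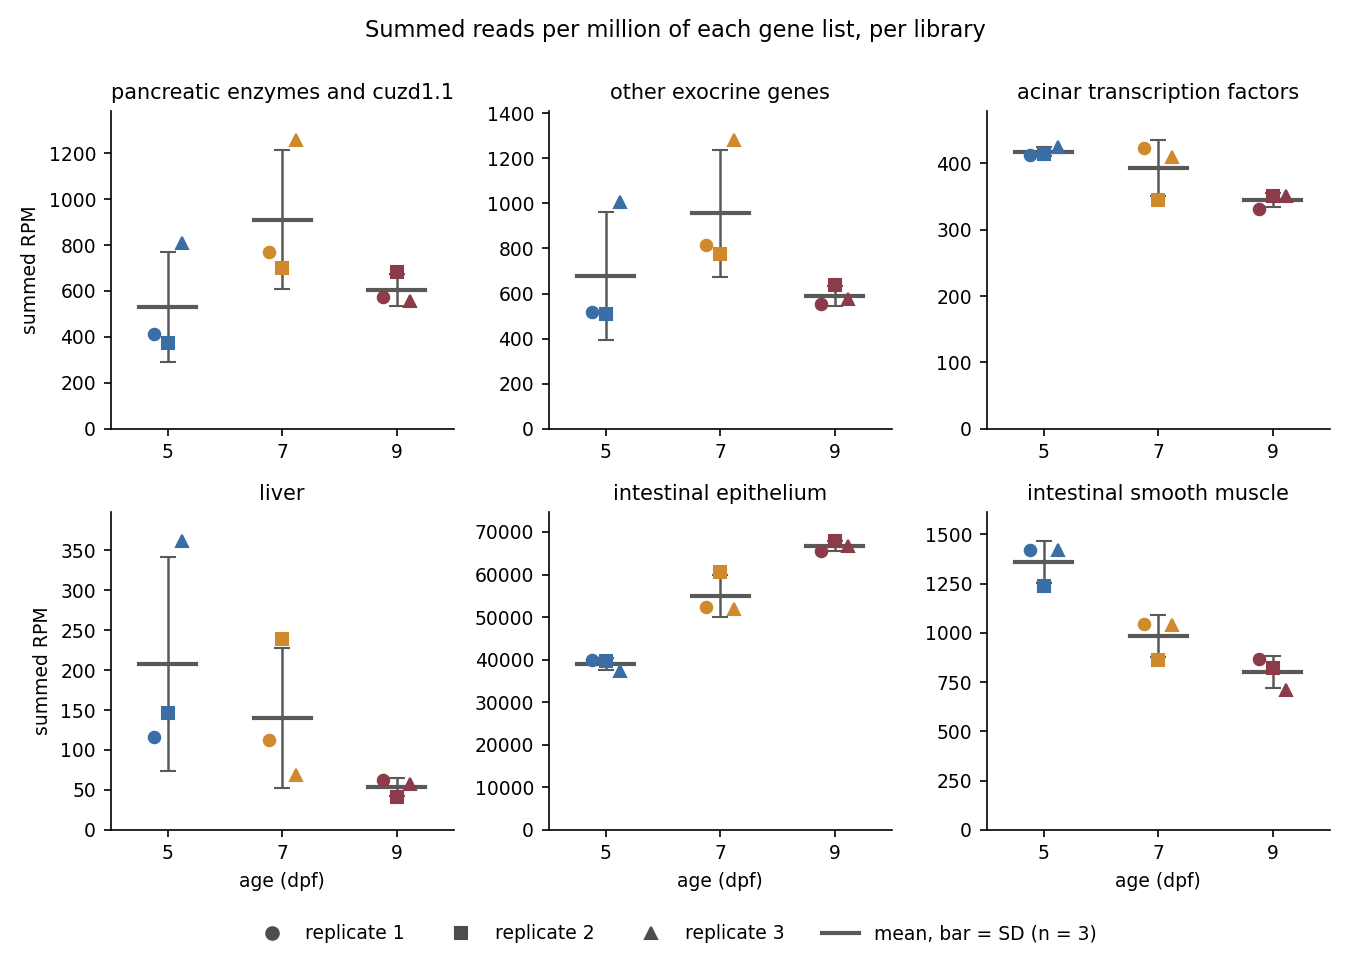
Summed RPM of the 9 genes and of 5 other gene lists (vertical axes, each from 0) at 5, 7 and 9 dpf; symbols are libraries, the line is the mean of 3 and the bar the SD. The 9 genes and the other exocrine genes share their pattern of high and low libraries, and the epithelium list separates the 3 ages. The acinar transcription factors, mostly reads of xbp1, gata6 and nr5a2, which the intestine also expresses, lie at 412 to 425 RPM at 5 dpf. They lie at 344 to 424 RPM at 7 dpf and at 332 to 351 RPM at 9 dpf, with no overlap between 5 and 9 dpf on this scale. In normalized counts their sums overlap, at 2712 to 4243 at 5 dpf and 3362 to 4931 at 9 dpf.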

How the data were processed

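RNA libraries were made from total RNA depleted of ribosomal RNA, per the labels' protocols. Per the submitters' processing notes, tools named for the series include STAR 2.5.2b and DESeq2 1.16.1, and the build is GRCz10; the read counter is not given in the sources used here. The deposited RNA values are a signal: read counts that the authors divided by 1 size factor per library. Multiplication by that factor gave whole reads for 100% of values (tolerance 1e-06). The peak lists were not used, since no annotation of GRCz10 was at hand to place them at these genes.

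A gene was tested where 3 or more of the 9 libraries reached a value of 10 (24298 genes), with limma 3.58.1 (trend and robust options) on log2(value + 1), 9 libraries in 1 fit, and Benjamini-Hochberg adjustment over all genes tested in each comparison. Genes passed, or were called, at an adjusted p under 0.05. Fold changes on this scale understate those of low genes. edgeR 4.0.16 and DESeq2 1.42.0 were run on the recovered reads, where edgeR called 4123, 1017 and 484 genes for 9 against 5, 7 against 5 and 9 against 7 dpf. The fits were first tested on simulated counts. There limma recovered 45% and edgeR 42% of changes of log2 1 between 9 and 5 dpf, and both recovered 99% of changes of log2 2. The simulated spread was set in advance and not taken from these pools, so these percentages do not give the power for the 9 genes. Libraries were grouped by the age in the labels. Each other list has at most 6 genes named, first those called at 9 against 5 dpf by adjusted p, then those of highest mean level. The members and all lists were chosen with earlier results of these data known. Other settings, including scalings, pseudocounts, filters and left-out libraries, are compared at the end. Not every gene of the likeness ranking is reported here.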

Additional observations from a re-analysis of the deposited data

How the results depend on the processing

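Counts of the 9 genes passing moved with several choices. At 9 against 5 dpf, where 1 passed, it was 2 with a replicate block, in a fit that called 4148 of 24298 genes. It was 1 to 5 with a library left out. At 7 against 5 dpf (0 passed) it was 1 on total read scaling (cel.1) or quantile scaling (cuzd1.1). Those fits called 1774 and 2275 genes. It was 3 in DESeq2 and 4 with the replicate block, in fits that called 1346 and 1240 genes, and 0 to 6 with a library left out. At 9 against 7 dpf (0) it was 1, cuzd1.1, on total read, quantile or cyclic loess scaling or with the replicate block. Those fits called 1224, 1552, 2044 and 790 genes. It was 0 to 1 with a library left out. For the difference of the steps (0) it was 1 with the block, in a fit that called 410 genes, and 0 to 1 with a library left out. Replicate numbers were not read as a pairing: correlations of same-number libraries ran from -0.42 to 0.47, and 1 of 9 correlated best with its own number.

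All genes passing at 9 against 5 dpf came to 1818 to 4724 with a library left out. At 7 against 5 dpf they came to 1774, 2275 and 2089 on total read, quantile and cyclic loess scaling, and 315 to 1528 with a library left out. At 9 against 7 dpf these were 1224, 1552 and 2044, with 731 in DESeq2, 790 with the block, 843 from only the 2 ages compared, and 101 to 998. Genes of the other lists passing at 9 against 5 dpf (13) were 30, 22 and 21 on those scalings and 6 to 16 with a library left out. At 7 against 5 dpf (1) they were 11, 8 and 9, with 4 in DESeq2, 5 with the block and 0 to 11. At 9 against 7 dpf (0) they were 5, 7 and 7, with 1 on TMM scaling or with a filter of 50, 2 in DESeq2, 4 with the block, 6 from only the 2 ages and 0 to 6. The cause was not tested.

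Total read scaling lowers the median log2 fold change of all genes by 0.45, 0.28 and 0.17 at 9 against 5, 7 against 5 and 9 against 7 dpf. The higher share of passing genes at 9 against 5 dpf, 74.6%, was 63.5% on TMM, 23.5% on total read, 53.2% on quantile and 55.1% on cyclic loess scaling. At 7 against 5 dpf, 64.8% became 35.4%, 54.0% and 52.3% on the last 3, and at 9 against 7 dpf 79.7% became 50.2%, 57.4% and 61.4%.

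No direction turned at 9 against 5 dpf for cuzd1.1 or for the 13 genes of the other lists that passed, in any alternative run. Among the other members in that comparison, cel.2 (0.01) was -0.055 on TMM, -0.44 on total read and -0.031 on cyclic loess scaling, -0.089 in edgeR and -0.084 in DESeq2, and -0.30 to 0.41 with a library left out. cpa5 (0.23) was -0.235 on total read, -0.18 on quantile and -0.235 on cyclic loess scaling, and -0.25 to 0.74 with a library left out. cpb1 (0.44) was -0.023 on total read scaling, and cpa4 (-0.08) was -0.43 to 0.30 with a library left out. At 7 against 5 dpf cpa4 (0.24) was -0.043 on total read scaling and -0.10 to 0.62, and at 9 against 7 dpf cpb1 (-0.29) was -0.53 to 0.035. The cuzd1.1 difference of the steps (0.08) was -0.0455 in both edgeR and DESeq2 and -0.28 to 0.75. Relative to 14 other exocrine genes, the ratios of try, cpa5 and cpb1 at 9 against 5 dpf were 0.39, 0.0011 and 0.21. Exocrine genes among the 15 most alike (3) were 7 on total read scaling and 1 to 4 with a library left out.

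The log2 difference of the summed level at 9 against 5 dpf, 0.73, was 0.27 on total read scaling and 0.32 to 1.18 with a library left out. Histone peaks at these genes were planned and not run. A limit from depth was not tested. cpa4, with 65 to 197 reads, had an SE of 0.33 on the log2 scale, and try, with 670 to 4374 reads, one of 0.44. These SEs also hold the spread between pools, so they cannot show the part of depth. The highest share of cpa4 in the sum was 1.19, 1.54 and 1.54 times the lowest at 5, 7 and 9 dpf. For try it was 1.06, 1.03 and 1.06 times.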
